A study of Homo sapiens with 12 samples.

Results

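The 8 genes described here encode ATP-binding cassette (ABC) transporters other than ABCB1 that are linked to drug efflux: ABCC1, ABCC2, ABCC3, ABCC4, ABCC5, ABCC10, ABCG2 and ABCB6. They were chosen by name, from a table of 60669 Ensembl genes, and all 8 were found in it once and passed the filter on low counts. RNA sequencing of polyA RNA was performed in 3 chemosensitive cell lines labelled as ovarian cancer (HeyA8, SKOV3 and OV2008) and in the resistant line of each family (HeyA8_MDR, SKOV3_TR and OV2008_C13), which the study describes as carboplatin-, taxane- and cisplatin-resistant, respectively. Each line was given 8 µM quinacrine (QC, an old antimalarial drug) or vehicle (the control without QC) for 6 h. There was 1 library per line and condition, so that the 4 groups (sensitive or resistant, vehicle or QC) held 3 libraries each. Each resistant line is a single derived cell population, and the replicates of a group are different cell lines rather than repeated cultures. The questions were which pumps differed between a resistant line and its sensitive partner and which responded to QC.

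ABC transporters use ATP to move substrates across membranes. The ABCC proteins, also called multidrug resistance-associated proteins (MRPs), mainly carry organic anions, many of them joined to glutathione, glucuronate or sulfate, whereas ABCG2 (BCRP) and ABCB1 (P-glycoprotein) carry many hydrophobic drugs unchanged. Taxanes are classical substrates of ABCB1, and platinum drugs can leave a cell as glutathione conjugates.

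The libraries held 17782556 to 30585059 counts (median 22289428), and levels are given as CPM, the counts of a gene relative to the total of its library, after scaling by the trimmed mean of M-values (TMM). The HeyA8 QC library stood between its own line and HeyA8_MDR. Of the genes at least 8-fold higher in HeyA8_MDR than in HeyA8 with vehicle (39 genes), the median lay 38.8% of the way towards HeyA8_MDR in that library, and for the 79 genes at least 8-fold lower it lay 51.3% of the way. The OV2008 QC library lay 37% of the way towards OV2008_C13 for the 58 genes at least 8-fold lower in that line, but 0.762% of the way for the 45 genes at least 8-fold higher. Every ratio of QC to vehicle in HeyA8 rests on the HeyA8 QC library, and tests over lines that use it are given without it where it matters to a member. The epithelial keratins KRT8 and KRT18 were at 161 CPM or above in every library, but the ovarian lineage factor PAX8 was at 7.55 to 24.7 CPM in the 4 libraries of the OV2008 family, against 234 to 479 CPM in the 8 others, and WT1 did not exceed 4.78 CPM anywhere. Markers of leukocytes (PTPRC, CD3E, CD14) and 2 fibroblast genes (DCN, LUM) stayed under 1 CPM in all libraries and the third, COL1A1, reached 39.3 CPM, while the endothelial gene CDH5 was at 89.1 to 176 CPM in the HeyA8 family. The part of these markers in the results below was not tested.

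Per kilobase of canonical transcript, which allows genes to be compared, a different pump led in nearly every line. With vehicle, ABCC5 had the highest level per length in HeyA8 (27.0% of the sum over the 8 genes) and OV2008 (39.0%), ABCC4 in HeyA8_MDR (32.1%), ABCC3 in SKOV3 (43.9%), ABCC1 in SKOV3_TR (33.5%) and ABCG2 in OV2008_C13 (27.0%). In HeyA8 the order of ABCC5 and ABCC1 (25.8%) turned when the length of all annotated exons was used instead. The summed level ranged from 44.4 CPM per kb in HeyA8_MDR to 88.5 CPM per kb in OV2008_C13 with vehicle. ABCC2 made up 0.223% of the sum in SKOV3 and 15.1% in SKOV3_TR, and 1.30% in OV2008 and 16.6% in OV2008_C13. In HeyA8_MDR it made up 4.51%, against 1.22% in HeyA8.

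**Figure D1:**
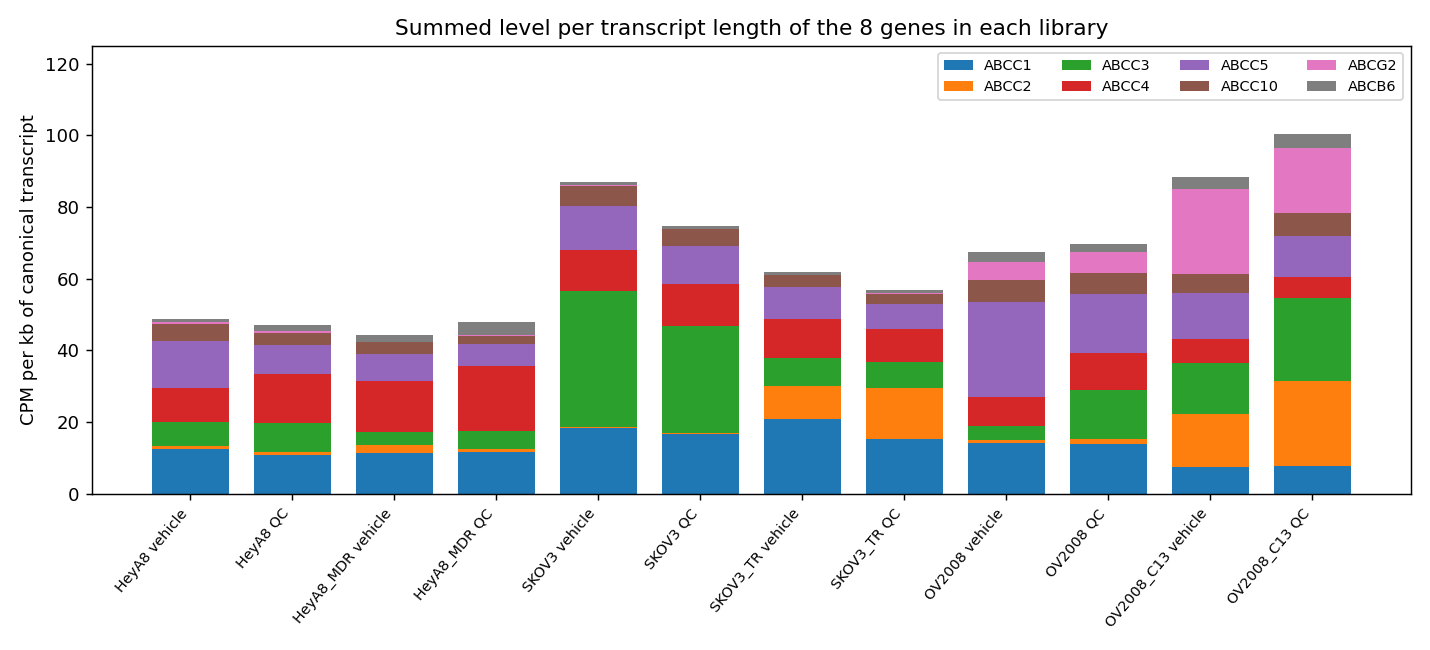
Summed level of the 8 efflux pump genes in each of the 12 libraries (bars, CPM per kb of canonical transcript), divided by gene. ABCC2 and ABCG2 take up a large part of the OV2008_C13 bars, ABCC3 leads in SKOV3, and ABCG2 can hardly be seen in the HeyA8 and SKOV3 families. ABCB6 is drawn too, although part of its reads may not have been counted.

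The genes with the widest range over the 12 libraries were ABCC2 and ABCG2, and those with the narrowest were ABCC1, ABCC4 and ABCC10. ABCC1 ran from 48.8 to 135 CPM, ABCC4 from 34.8 to 106 CPM and ABCC10 from 10.4 to 31.2 CPM. In contrast, ABCC2 ran from 0.725 to 138 CPM and ABCG2 from 0.453 to 101 CPM.

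**Figure D2:**
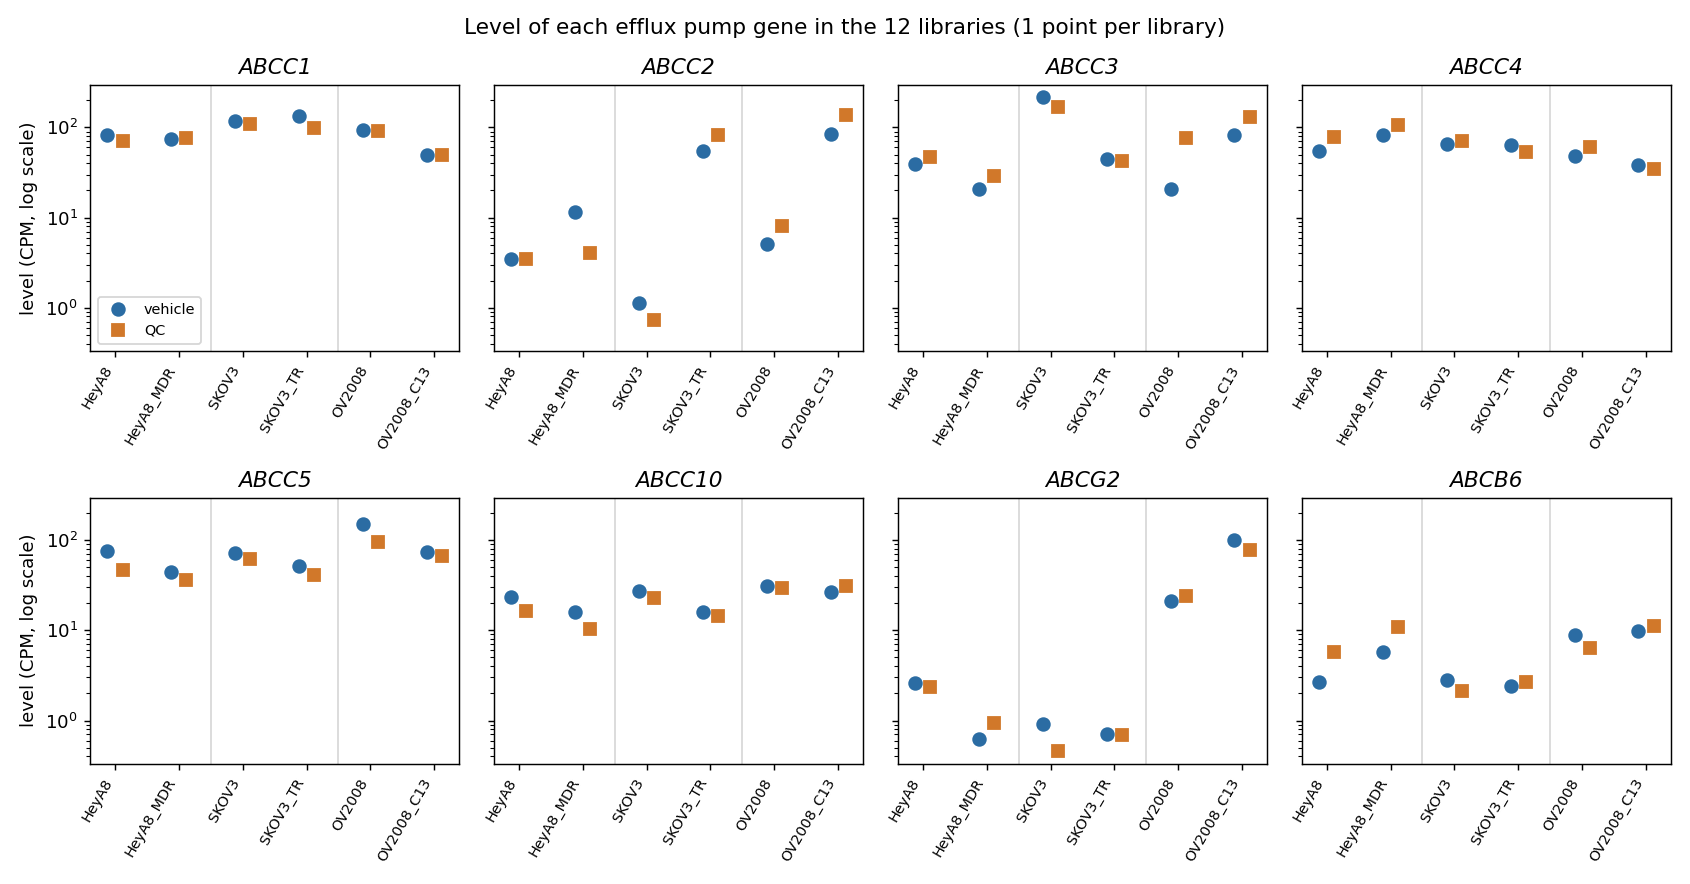
Level of each gene (CPM on a log scale) in the 6 lines with vehicle (circles) and with QC (squares), 1 point per library, with grey lines between the families. In vehicle libraries ABCC2 was higher in each resistant line than in its partner, and ABCG2 was above 20 CPM in the OV2008 family alone.

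ABCC2 (MRP2), the apical exporter of conjugated compounds such as bilirubin glucuronide, was the member with the largest difference between resistant and sensitive lines. In vehicle libraries it was at 3.45 CPM in HeyA8, 1.13 CPM in SKOV3 and 5.09 CPM in OV2008. In their resistant partners it was at 11.6 CPM in HeyA8_MDR, 54.3 CPM in SKOV3_TR and 85.2 CPM in OV2008_C13. All 3 resistant lines thus lay above all 3 sensitive lines, which held for 2.05% of the 18720 genes tested. The ratio of the partners was 3.37 (95% counting interval 2.59 to 4.41) in the HeyA8 family, 48.1 (33.0 to 73.3) in the SKOV3 family and 16.7 (13.6 to 20.9) in the OV2008 family. A ratio of at least 3 in all 3 families was seen for 37 genes (0.198%). These intervals cover counting error only and not the spread between cultures.

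With QC, ABCC2 was at 3.47 CPM in HeyA8, 0.725 CPM in SKOV3 and 8.14 CPM in OV2008, against 4.08 CPM in HeyA8_MDR, 82.2 CPM in SKOV3_TR and 138 CPM in OV2008_C13. The difference therefore remained in 2 families, with ratios of 113 (69.6 to 199) for SKOV3 and 16.9 (14.6 to 19.7) for OV2008. In the HeyA8 family the ratio with QC was 1.18 (0.851 to 1.62), an interval that includes 1, and scaling to RPLP0 gave a log2 ratio of -0.28 in place of 0.24. In HeyA8_MDR, ABCC2 went from 11.6 to 4.08 CPM with QC (ratio 0.351, interval 0.264 to 0.462), with 1 library per condition. In HeyA8 the interval of the ratio to vehicle included 1 (0.737 to 1.37). However, the HeyA8 QC library stood between the 2 lines for the genes that separate them. The part of each library in the ratio of 1.18 was not tested. In the test over the 3 families with vehicle, the log2 difference of ABCC2 was 3.83 (SE 0.842, unadjusted p = 0.00419), but the adjusted p by edgeR was 0.981. That fit had 2 residual degrees of freedom, so a high adjusted p in it does not show that a difference is absent. The partner difference of ABCC2 in the SKOV3 family exceeded that in the HeyA8 family by 4.97 on the log2 scale (edgeR adjusted p = 4.93e-04, where 18.8% of genes passed). For this comparison of families, a line's vehicle and QC libraries served as its replicates. Its p value therefore does not measure variation between cultures or derived lines.

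The 250 bases before the ABCC2 start site are shown because this gene carried the clearest difference between partners. They lie at chr10:99782390-99782639 (GRCh38.p14, plus strand, RefSeq) and are printed 5′ to 3′. No capitals appear, since none of the 3 motifs searched on both strands was found in this window: the antioxidant response element core TGACNNNGC, the xenobiotic response element core GCGTG and the GC box GGGCGG.
ABCC2: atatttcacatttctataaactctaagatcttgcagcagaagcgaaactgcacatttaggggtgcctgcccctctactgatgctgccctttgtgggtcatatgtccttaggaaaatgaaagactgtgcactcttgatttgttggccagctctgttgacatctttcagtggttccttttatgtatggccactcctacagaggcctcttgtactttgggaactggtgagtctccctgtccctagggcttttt
Of 35116 RefSeq promoter windows, 13.3% held the first motif, 36.5% the second and 45% the third. Promoter windows were matched for 6 of the 8 genes, and ABCC1 and ABCC3 had none in the table. The antioxidant response element core, the letters bound by NRF2, was found upstream of ABCC4, ABCB6 and 1 of the 2 start sites of ABCC10, and it is shown in capitals with 10 bases on either side for comparison with ABCC2. The full window of 300 bases, which runs 50 bases past the start site and to which the shares above apply, also held it at 1 of the 5 start sites of ABCG2.
ABCC4, chr13:95301582-95301610, minus strand, motif reversed: gtctcctcccGCCGCGTCAcccgtcggtc
ABCC10, chr6:43427388-43427416, plus strand: aggttataaaTGACGTTGCactaagggag
ABCB6, chr2:219219092-219219120, minus strand: cctgggcacgTGACCAAGCcggctctgct
The ABCC4 core lay 149 bases before the start site, that of ABCC10 143 bases and that of ABCB6 152 bases. A match is a description of the letters and not of binding, and these 3 genes did not share the pattern of ABCC2 over the lines.

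ABCG2 (BCRP), an exporter of topotecan, mitoxantrone and urate, was a gene of the OV2008 family in these data. Its level with vehicle was 21.0 CPM in OV2008 and 101 CPM in OV2008_C13. In the other lines it was at 2.61 CPM in HeyA8, 0.622 CPM in HeyA8_MDR, 0.919 CPM in SKOV3 and 0.708 CPM in SKOV3_TR. With QC the levels were 24.1 CPM in OV2008 and 77.3 CPM in OV2008_C13, and between 0.453 and 2.34 CPM in the others. All 4 libraries of the OV2008 family were at least 8-fold above all 8 others, as was the case for 1.06% of genes. The lines of the SKOV3 family, with 10 to 24 counts per library, could not be told apart (vehicle ratio 0.770, interval 0.414 to 1.44).

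Within families ABCG2 moved in opposite directions. OV2008_C13 exceeded OV2008 by a ratio of 4.79 (4.31 to 5.35) with vehicle and 3.20 (2.91 to 3.53) with QC. HeyA8_MDR was below HeyA8 by a ratio of 0.238 (0.117 to 0.448) with vehicle and 0.405 (0.219 to 0.709) with QC, at 12 to 64 counts per library. The difference between these 2 partner differences was 3.62 on the log2 scale (SE 0.455, edgeR adjusted p = 8.20e-04), a contrast that passed for 7.11% of genes. This p value too does not measure variation between cultures or derived lines. The test of differences between the 3 families with vehicle gave an adjusted p of 0.0341 for ABCG2 (edgeR). It was the only one of the 8 genes to pass in that fit, against 13.8% of the 16091 genes tested. ABCC1 and ABCC5 also passed relative to RPLP0 (edgeR adjusted p = 0.0222 and 0.0309), and ABCC3 without the filter on low counts (adjusted p = 0.00832). The lines of a family share their origin, so this compares 3 families and not independent tumours.

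ABCC3 (MRP3), a basolateral exporter of glucuronides and bile salts, was lower in the resistant line of 2 families and higher in that of the third. With vehicle it was at 39.4 CPM in HeyA8 and 20.9 CPM in HeyA8_MDR. It was at 217 CPM in SKOV3 and 44.6 CPM in SKOV3_TR, the lowest partner ratio of any member (0.205, interval 0.194 to 0.217). In contrast, it was at 20.7 CPM in OV2008 and 82.1 CPM in OV2008_C13. The groups of sensitive and resistant lines therefore overlapped. The partner differences of the OV2008 and SKOV3 families differed by 3.38 on the log2 scale (SE 0.563, edgeR adjusted p = 0.00137), and 21.5% of genes passed in this contrast. Again the p value does not measure variation between cultures or derived lines.

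With QC, ABCC3 was at 47.5 CPM in HeyA8, 29.0 CPM in HeyA8_MDR, 169 CPM in SKOV3, 42.5 CPM in SKOV3_TR, 76.6 CPM in OV2008 and 132 CPM in OV2008_C13. The ratio of QC to vehicle was 3.69 (3.30 to 4.14) in OV2008, the largest QC ratio of any member in any line, and 1.60 (1.52 to 1.69) in OV2008_C13. It was above 1 in the HeyA8 family too, at 1.20 in HeyA8, where it rests on the HeyA8 QC library, and 1.39 in HeyA8_MDR, but 0.779 in SKOV3 and 0.951 in SKOV3_TR. Over all 6 lines the log2 difference was 0.46 (SE 0.231, edgeR adjusted p = 0.363). The partner ratio in the OV2008 family accordingly went from 3.96 with vehicle to 1.72 with QC.

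ABCC5 (MRP5), an exporter of cyclic nucleotides and nucleoside analogues, was by TMM scaling the only member lower in all 3 resistant lines under both conditions. By the same scaling it was the only one lower with QC in all 6 lines. Relative to RPLP0, ABCC1 and ABCC10 were also lower in all 3 resistant lines under both conditions. In vehicle libraries ABCC5 was at 76.4, 72.1 and 153 CPM in HeyA8, SKOV3 and OV2008. In HeyA8_MDR, SKOV3_TR and OV2008_C13 it was at 44.8, 51.1 and 74.8 CPM. The ranges of the sensitive and resistant groups overlapped, although each resistant line was below its own partner, with ratios of 0.587, 0.708 and 0.490. With QC the ratios were 0.778, 0.661 and 0.696, and a lower value in all 6 of these comparisons was found for 6.21% of genes. The ratio of 0.778 rests on the HeyA8 QC library. The log2 difference with vehicle was -0.74 (SE 0.279, unadjusted p = 0.0385, edgeR adjusted p = 0.981).

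With QC, ABCC5 was at 46.9 CPM in HeyA8, 61.8 CPM in SKOV3 and 96.5 CPM in OV2008. In the resistant lines it was at 36.4 CPM in HeyA8_MDR, 40.8 CPM in SKOV3_TR and 67.2 CPM in OV2008_C13. The ratio to vehicle ran from 0.613 in HeyA8 to 0.898 in OV2008_C13, and 4.80% of genes were lower in 6 of 6 lines. The HeyA8 QC library, on which the ratio of 0.613 rests, was close to HeyA8_MDR with vehicle (46.9 against 44.8 CPM). In OV2008 the ratio was 0.633. The OV2008 QC library, at 96.5 CPM, also lay between OV2008 (153 CPM) and OV2008_C13 (74.8 CPM) with vehicle. The part of this in either ratio was not tested. The direction depended on scaling: OV2008_C13 had a log2 ratio of 0.00 when library size alone was used, and with RPLP0 as the reference ABCC5 was lower in 4 of 6 lines. The log2 difference over the 6 lines was -0.39 (SE 0.117, unadjusted p = 0.00550, edgeR adjusted p = 0.177). It was -0.33 without HeyA8 (unadjusted p = 0.0218), and -0.21 relative to RPLP0 (unadjusted p = 0.194), a scaling that moved the median of all genes by 0.183.

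ABCC10 (MRP7), which can export taxanes and vinca alkaloids, resembled ABCC5 over the 12 libraries (Pearson r = 0.871 on the log2 scale, the highest among the 8 genes, across libraries that share lines). Its level with vehicle was 23.5 CPM in HeyA8 and 15.9 CPM in HeyA8_MDR, 27.5 CPM in SKOV3 and 16.1 CPM in SKOV3_TR, and 31.2 CPM in OV2008 and 26.5 CPM in OV2008_C13. Each resistant line was again below its partner, but with QC OV2008_C13 (31.2 CPM) was no longer below OV2008 (29.8 CPM). With QC the other lines were at 16.4 CPM in HeyA8, 10.4 CPM in HeyA8_MDR, 22.8 CPM in SKOV3 and 14.5 CPM in SKOV3_TR. The QC ratio was lowest in HeyA8_MDR, at 0.654 (0.540 to 0.789). In HeyA8 it was 0.696 (0.612 to 0.791), but the HeyA8 QC library was at the level of HeyA8_MDR with vehicle, and without HeyA8 the log2 difference with QC in the sensitive lines was -0.17 in place of -0.29 (edgeR adjusted p = 1 and 0.823).

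ABCC1 (MRP1), the exporter of glutathione conjugates and anthracyclines after which the family is named, was among the most abundant pumps and varied little. With vehicle it was at 82.1 CPM in HeyA8, 74.7 CPM in HeyA8_MDR, 119 CPM in SKOV3, 135 CPM in SKOV3_TR, 92.7 CPM in OV2008 and 48.8 CPM in OV2008_C13. With QC it was at 71.0, 75.8, 109, 99.0, 90.8 and 49.7 CPM in the same order. OV2008_C13 was the lowest line under both conditions, and its ratio to OV2008 was 0.527 (0.491 to 0.565) with vehicle and 0.547 (0.511 to 0.587) with QC. The largest QC difference was in SKOV3_TR, with a ratio of 0.733 (0.694 to 0.774).

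ABCC4 (MRP4), an exporter of cyclic nucleotides and prostaglandins, was the leading pump of HeyA8_MDR. In vehicle libraries it was at 54.5 CPM in HeyA8 and 83.3 CPM in HeyA8_MDR, 65.8 CPM in SKOV3 and 64.1 CPM in SKOV3_TR, and 48.7 CPM in OV2008 and 38.0 CPM in OV2008_C13. With QC it was at 79.3, 106, 69.8, 53.2, 60.6 and 34.8 CPM in the same order. QC libraries were higher in HeyA8, HeyA8_MDR and OV2008, by ratios of 1.45, 1.28 and 1.24, and lower in SKOV3_TR and OV2008_C13, by ratios of 0.830 and 0.914. The direction in OV2008_C13 depended on scaling, with log2 ratios of -0.13 by TMM, 0.026 by library size and 0.35 relative to RPLP0. In SKOV3 the ratio was 1.06, with an interval that includes 1 (0.988 to 1.14). The HeyA8 QC library was close to HeyA8_MDR with vehicle, and without HeyA8 the log2 difference with QC in the sensitive lines was 0.20 in place of 0.31 (edgeR adjusted p = 1 and 0.777). The difference of QC effects between resistant and sensitive lines was -0.33 on the log2 scale (SE 0.265, unadjusted p = 0.240), which is within the spread between lines.

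ABCB6, a porphyrin transporter of mitochondria and endolysosomes, had 47 to 297 counts per library, and its values are uncertain. Of its 5205 annotated exonic bases, 54.6% are shared with a gene on the same strand, ENSG00000284820, and reads in the shared part may have been left uncounted or divided. As counted, ABCB6 was at 2.70 CPM in HeyA8, 5.81 CPM in HeyA8_MDR, 2.80 CPM in SKOV3, 2.42 CPM in SKOV3_TR, 8.78 CPM in OV2008 and 9.84 CPM in OV2008_C13 with vehicle. With QC it was at 5.80, 10.9, 2.13, 2.70, 6.30 and 11.2 CPM in the same order. Both lines of the HeyA8 family were higher with QC, by ratios of 2.15 (1.59 to 2.94) and 1.88 (1.48 to 2.40). The HeyA8 QC library, on which the ratio of 2.15 rests, was at the level of HeyA8_MDR with vehicle (5.80 against 5.81 CPM), and the part of this in the ratio was not tested. Without HeyA8 the log2 difference with QC in the sensitive lines was -0.44 in place of 0.071 (edgeR adjusted p = 1 and 0.985). The ratio was 0.717 (0.568 to 0.905) in OV2008, and in OV2008_C13 and both lines of the SKOV3 family the intervals included 1.

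**Figure D3:**
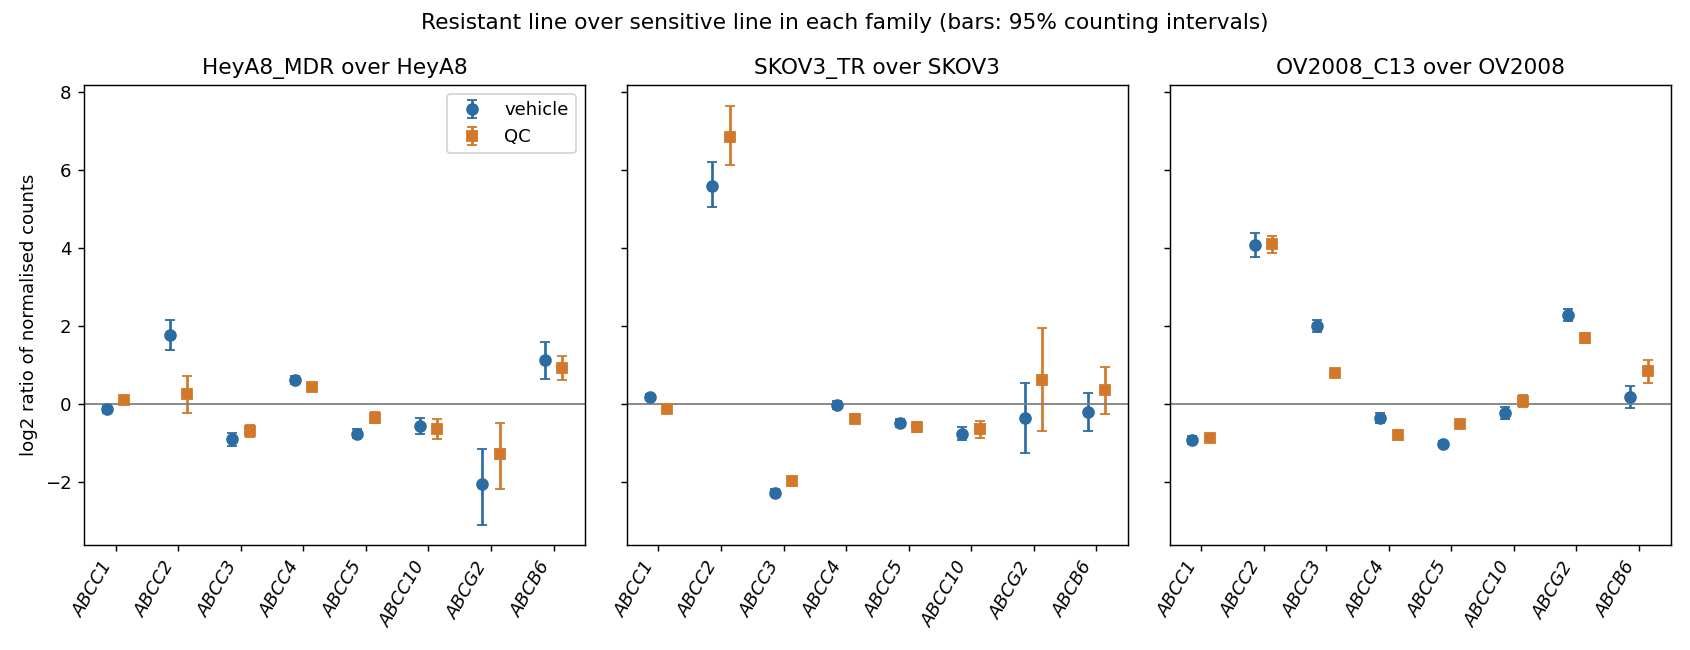
Log2 ratio of the resistant over the sensitive line in each family with vehicle (circles) and QC (squares), with bars for the 95% counting intervals. ABCC2 is the largest ratio in the SKOV3 and OV2008 families, ABCC3 lies below 0 in 2 families and above 0 in the third, and ABCC5 lies below 0 in all 3.

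Over the 3 families with vehicle, 2 of the 8 genes (ABCC2 higher, ABCC5 lower) had an unadjusted p under 0.05, against 3.75% of the 16091 genes tested. None had an adjusted p under 0.05 in edgeR, nor did any other gene, while 603 genes passed the unadjusted threshold. The fit had 2 residual degrees of freedom. DESeq2 called 45 genes and limma voom with all 12 libraries called 28. For ABCC2 the adjusted p was 3.65e-04 by DESeq2 and 1.14e-05 without the filter on low counts, and in all other alternatives it was 0.0692 or above. Scaling to RPLP0 moved the median of all genes by -0.415 in this contrast and left the directions of ABCC1, ABCC2, ABCC3, ABCC5 and ABCC10 as they were, but turned those of ABCC4, ABCG2 and ABCB6, whose differences of 0.09, 0.04 and 0.37 were all smaller than their SE.

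Since the partner ratios went in different directions, the partners of each family were also compared, in 1 fit over all 12 libraries. It had a term for each line and a common QC term. Each contrast set 1 line against 1 line, with a line's vehicle and QC libraries serving as replicates and the spread shared over all lines. The p values therefore do not measure variation between cultures or derived lines. In the HeyA8 family only ABCG2 passed, at a log2 difference of -1.66 (adjusted p = 0.0300, edgeR), or 1 of 8 genes against 4.08% of all genes. It was -1.69 without the HeyA8 QC library (adjusted p = 0.0350), but the adjusted p rose to 0.197 without the HeyA8 vehicle library and 0.258 without the HeyA8_MDR vehicle library. In the SKOV3 family 3 of 8 passed, against 31.5% of all genes: ABCC2 at 6.17 (adjusted p = 8.33e-06), ABCC3 at -2.17 (adjusted p = 0.00172) and ABCC10 at -0.71 (adjusted p = 0.0457). The share is thus close to the background, and the call of ABCC10 was lost with library size alone (adjusted p = 0.0719) and in 6 of the 12 fits that left out 1 library. In the OV2008 family 4 of 8 passed, against 9.46%: ABCC2 at 4.07 (adjusted p = 3.51e-04), ABCG2 at 1.97 (adjusted p = 0.00129), ABCC1 at -0.90 (adjusted p = 0.0138) and ABCC5 at -0.78 (adjusted p = 0.0335, and 0.0816 with library size alone). ABCC5 in the SKOV3 family did not pass in this fit but did without the HeyA8 QC library (-0.56, edgeR adjusted p = 0.0488).

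The calls of ABCC2 in the SKOV3 and OV2008 families, of ABCC3 in the SKOV3 family and of ABCG2 in the OV2008 family held when each of the 12 libraries was left out in turn. The calls of ABCC1 and ABCC5 in the OV2008 family were lost when any of that family's 4 libraries was left out, with adjusted p values of up to 0.135 and 0.248. ABCC3 in the OV2008 family had a log2 difference of 1.21 that did not pass in edgeR (adjusted p = 0.0733) but passed in DESeq2 (adjusted p = 0.0358).

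ABCB1 shares these lines and its levels are given once for comparison. Its level with vehicle was 4.12 CPM in HeyA8, 53.8 CPM in HeyA8_MDR, 0.167 CPM in SKOV3, 333 CPM in SKOV3_TR, 38.1 CPM in OV2008 and 0.598 CPM in OV2008_C13, so that OV2008_C13, in which ABCC2 and ABCG2 were highest, had next to none.

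**Figure D4:**
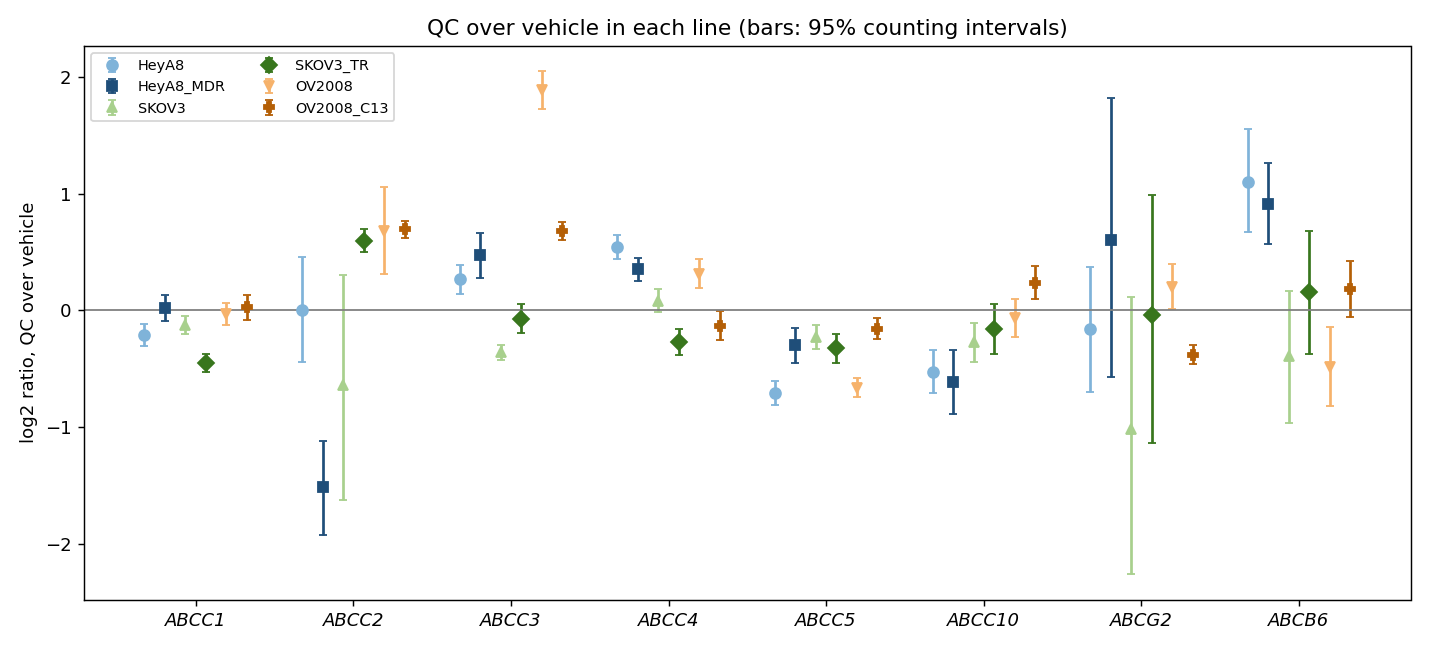
Log2 ratio of QC over vehicle for each gene in each of the 6 lines, with bars for the 95% counting intervals. The 6 lines lie on both sides of 0 for every gene except ABCC5, and the largest values are those of ABCC3 in OV2008 (1.88) and ABCC2 in HeyA8_MDR (-1.51).

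With QC over all 6 lines, 1 of 8 genes (ABCC5) had an unadjusted p under 0.05, against 15.2% of the 18720 genes tested, and no gene passed the adjusted threshold in edgeR (2840 genes at an unadjusted p under 0.05, and 522 genes at an adjusted p under 0.05 by DESeq2). In the sensitive lines it was again 1 of 8 (ABCC5, -0.53, SE 0.174, unadjusted p = 0.0104), against 6.59%. Without HeyA8 the value was -0.44 (unadjusted p = 0.0702), which still rests in part on the OV2008 QC library. In the resistant lines it was 0 of 8, against 6.03%, and ABCC5 was at -0.26 (SE 0.174). The difference of the QC effects passed for 0 of 8 genes, against 1.16%, so that no member can be said to respond differently in resistant lines. All these tests had 4 or 5 residual degrees of freedom.

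For the members other than ABCC5, the lines of a group often disagreed. ABCC2 exceeded vehicle beyond counting error in OV2008, OV2008_C13 and SKOV3_TR, with ratios of 1.60 (1.24 to 2.08), 1.62 (1.54 to 1.70) and 1.51 (1.41 to 1.62), was lower in HeyA8_MDR and could not be told apart from vehicle in HeyA8 and SKOV3. ABCG2 had a ratio of 0.769 (0.726 to 0.813) in OV2008_C13 and 1.15 (1.01 to 1.32) in OV2008, and in the other 4 lines the intervals included 1. The direction in OV2008_C13 depended on scaling, with a log2 ratio of -0.38 by TMM and 0.10 relative to RPLP0. In OV2008 these values were 0.20 and 0.68. By TMM scaling, therefore, a mean over lines describes neither gene well.

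The other genes of efflux and conjugation were read from fixed lists. Of 26 other ABC transporters tested with vehicle, 1 had an unadjusted p under 0.05, against 3.75% of all genes (1.97% higher and 1.78% lower), which is the background for the lists that follow too, and none had an adjusted p under 0.05. The smallest p values belonged to ABCA3, a lipid transporter of lung surfactant (log2 difference 1.86, SE 0.461, unadjusted p = 0.00721), and ABCA12, a lipid transporter of skin (1.90, SE 0.834, unadjusted p = 0.0645). Of 15 genes of glutathione synthesis and conjugation, which make substrates for the ABCC proteins, 2 were higher at the unadjusted threshold, GSTA4 (1.87, edgeR unadjusted p = 0.0258) and GSTP1 (0.78, unadjusted p = 0.0442). Of 14 regulators, 1 was lower, NFE2L2, which encodes NRF2 (-0.87, unadjusted p = 0.0334), followed by SP1 (-0.56, unadjusted p = 0.0768). Of 8 membrane partners none passed, and RDX, which encodes radixin and tethers ABCC2 to the cortex, was at -0.57 (unadjusted p = 0.120), followed by PDZK1 at 0.97 (unadjusted p = 0.232). The adjusted p by edgeR was 0.98 for each gene named here.

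Tested within families, 10 of 17 glutathione genes differed in the SKOV3 family (7 higher, 3 lower), 3 of 17 in the OV2008 family (all higher) and 0 of 17 in the HeyA8 family. Of 31 other ABC transporters, 10, 3 and 0 differed in the same order, of 15 regulators 7, 2 and 0, and of 8 membrane partners 3, 3 and 0. The background shares above (31.5%, 9.46% and 4.08%) apply to these counts too. By direction, 16.6% of all genes were higher and 14.9% lower in the SKOV3 family. In the OV2008 family these shares were 4.43% and 5.02%. With QC over all 6 lines, 4 of 17 glutathione genes were lower and none higher at an unadjusted p under 0.05, against 7.18% of all genes lower and 7.99% higher, led by GSTK1 (-0.46, unadjusted p = 0.00684) and GCLC (-0.43, unadjusted p = 0.0253). Among regulators 1 of 15 was higher, HIF1A (0.77, unadjusted p = 1.51e-04), and 3 were lower, among them KEAP1 (-0.41, unadjusted p = 0.00355). Among other ABC transporters ABCA12 (1.45, unadjusted p = 0.00430) and ABCF3 (-0.27, unadjusted p = 0.0260) had the smallest p values, 2 of 31 being higher and 2 lower. Of the 8 membrane partners RDX was higher (0.47, unadjusted p = 0.00781) and NHERF2 came next (-0.32, unadjusted p = 0.135). None of these had an adjusted p under 0.05 in edgeR.

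**Figure D5:**
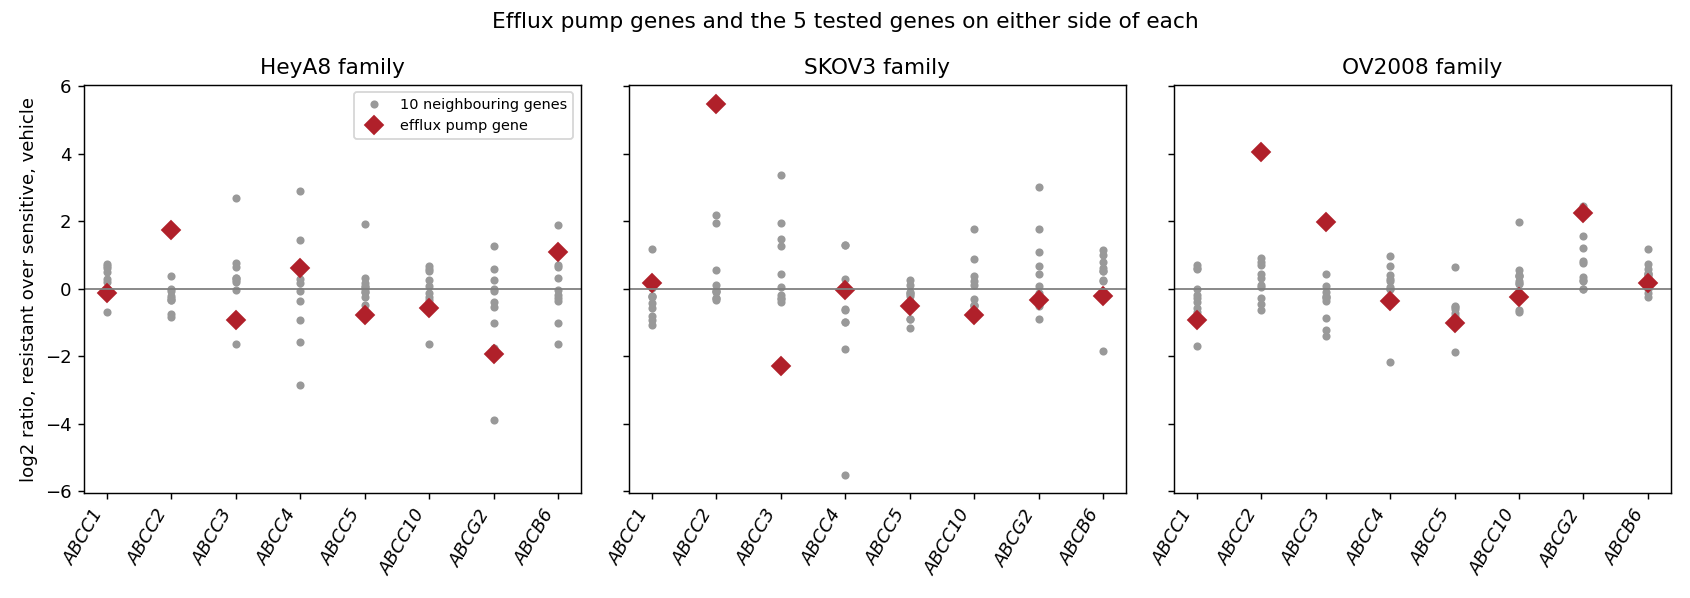
Log2 ratio of the resistant over the sensitive line with vehicle for each efflux pump gene (diamonds) and for the 5 tested genes on either side of it (grey points), by family. ABCC2 stands above its neighbours in the SKOV3 and OV2008 families, whereas ABCC5 in the OV2008 family lies within the range of its neighbours.

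To see whether a whole region moved, each gene was set beside its 10 nearest tested genes on the chromosome. ABCC2 (chr10:99782640-99852594, GRCh38.p14) lies between COX15 and DNMBP, and its neighbours had median log2 ratios of -0.25, -0.07 and 0.21 in the HeyA8, SKOV3 and OV2008 families, against 1.73, 5.49 and 4.04 for ABCC2 on the same scale. The highest neighbour reached 1.76 in the HeyA8 family, 2.18 in the SKOV3 family and 0.92 in the OV2008 family. DNMBP was at 1.94 in the SKOV3 family. ABCC2 thus stood outside its neighbours in 2 families. ABCC3 (chr17:50634881-50692253), between CACNA1G and ANKRD40, lay below all 10 neighbours in the SKOV3 family (-2.28, neighbours from -0.38) and above all 10 in the OV2008 family (1.98, neighbours up to 0.44). ABCC5 (chr3:183919934-184017884) is next to PARL and EIF2B5, and in the OV2008 family its ratio of -1.03 went with a median of -0.75 over the neighbours. In the HeyA8 family ABCC5 was at -0.77, below all 10 neighbours (from -0.48, median 0.02). In the SKOV3 family it was at -0.50, within their range (-1.16 to 0.25). ABCG2 (chr4:88090264-88231626) is next to PKD2 and PPM1K, and in the OV2008 family its ratio of 2.26 went with a median of 0.56, PPM1K being at 1.55 and the highest neighbour at 2.45. Copy number was not tested here.

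ABCC1 (chr16:15949143-16143053, beside CEP20 and NOMO3) was at -0.92 in the OV2008 family, within a neighbour range of -1.68 to 0.70. ABCC4 (chr13:95019835-95301451, beside SOX21-AS1 and DZIP1), ABCC10 (chr6:43427541-43451994, beside ZNF318 and DLK2) and ABCB6 (chr2:219209772-219218958, beside ZFAND2B and ENSG00000284820) have neighbours that spread widely. In the SKOV3 family ABCC10 was at -0.77, slightly below all 10 of its neighbours (-0.72 to 1.78). In the HeyA8 and OV2008 families it lay within their range. ENSG00000284820, which shares exons with ABCB6, had log2 ratios of 1.88, 1.16 and 1.16 in the 3 families, against 1.08, -0.20 and 0.16 for ABCB6.

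The gene whose log2 level was most like each member over the 12 libraries is given as a description, since the libraries share lines and families. It was NCOA1 for ABCC1 (Pearson r = 0.955), TSPAN7 for ABCC2 (0.958), MBNL1-AS1 for ABCC3 (0.938), RPL32P16 for ABCC4 (0.938), HERC2 for ABCC5 (0.948), OAS2 for ABCC10 (0.970), CYB5B for ABCG2 (0.990) and DPM1 for ABCB6 (0.945). When only the 6 vehicle libraries were used, another gene came first for each of the 8. Among the members themselves, the lowest correlation was that of ABCC1 and ABCB6 (-0.771), followed by ABCC4 and ABCG2 (-0.761).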

How the data were processed

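The authors deposited raw counts per Ensembl gene for 12 libraries. The submitters' processing notes name STAR 2.7.3a, HTSeq 0.6.1p1 and GRCh38.p13, whereas the study's methods name TopHat, HTSeq and hg19; strand setting and annotation release are not given in the sources used here. Counts were used as deposited. Symbols were paired with 58663 of 60669 identifiers (99.868% of counts). Genes were filtered with filterByExpr (minimum count 10), which left 18720 genes over 12 libraries and 16091 over the 6 vehicle libraries, scaled by TMM and fitted with the edgeR 4.0.16 quasi-likelihood test in R 4.3.3. QC effects had a term for each cell line, and the vehicle comparison had a term for each family. P values were two-sided and adjusted by Benjamini-Hochberg over all genes tested. Vehicle and QC libraries of a line were paired because they come from the same line (the correlation of their deviations was 0.893 to 0.929 in 6 lines). Tests within families were added after the data had been seen. Counting intervals were exact conditional intervals. Lengths came from GENCODE on GRCh37, and promoters and gene positions from RefSeq on GRCh38.p14. The script was tested on simulated data. The 8 genes and all lists were chosen with earlier results of these data known. Named genes were the 8 members, ABCB1, the 2 genes of smallest p per list and contrast, the nearest pattern and the immediate chromosomal neighbours. ENSG00000284820 was also followed because it shares exons with ABCB6. Alternatives used DESeq2 1.42.0, limma 3.58.1 and other scalings and filters.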

Additional observations from a re-analysis of the deposited data

Results flagged for a closer look

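In 8 cases the difference between a resistant line and its partner was not the same in 2 families, by a test of the difference of the differences in the edgeR fit over 12 libraries, added after the data had been seen. Such a difference had an adjusted p under 0.05 for 18.8% of all genes between the SKOV3 and HeyA8 families, 7.11% between OV2008 and HeyA8 and 21.5% between OV2008 and SKOV3. For ABCC2 the difference was larger in the SKOV3 than in the HeyA8 family by 4.97 on the log2 scale (adjusted p = 4.93e-04), and larger in the OV2008 than in the HeyA8 family by 2.86 (adjusted p = 0.0203). Between OV2008 and SKOV3 it was -2.11 (adjusted p = 0.0389). For ABCC3 the value was 2.03 for OV2008 minus HeyA8 (adjusted p = 0.0479, and 0.0538 without the HeyA8 QC library) and 3.38 for OV2008 minus SKOV3 (adjusted p = 0.00137). For ABCG2 it was 3.62 for OV2008 minus HeyA8 (adjusted p = 8.20e-04) and 1.95 for OV2008 minus SKOV3 (adjusted p = 0.0142). For ABCC1 it was -0.92 for OV2008 minus SKOV3 (adjusted p = 0.0289). ABCC4 joined these without the HeyA8 QC library, at -1.33 for OV2008 minus HeyA8 (adjusted p = 0.0370, against 0.0596 with it). In all these contrasts a line's vehicle and QC libraries served as its replicates. The p values therefore do not measure variation between cultures or derived lines. With 3 libraries in a group, no test of a single outlying library was made.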

How the results depend on the processing

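Depth did not limit the abundant pumps, but ABCG2 in the HeyA8 and SKOV3 families (10 to 64 counts) and ABCC2 in SKOV3 (16 and 27 counts) could not show small differences. With 1 library per line and condition, culture variation within a line was not measured. Of the values for single genes under an alternative, 663 kept their direction and their side of the threshold, 18 lost the call, 10 gained it and 53 turned. Without the filter on low counts, ABCC2 and ABCC3 passed between the HeyA8 partners (adjusted p = 0.00588 and 0.0194, edgeR). There the SE was 0.249, 0.256, 0.254 and 0.255 for ABCC1, ABCC3, ABCC4 and ABCC5. With the filter it was 0.190, 0.394, 0.223 and 0.204. The fit without the filter thus hardly told the spread of these genes apart, and its calls rest on that. The cause of these changes was not tested.

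Counts of genes called moved as follows. Without the filter on low counts, unadjusted counts were 1918 for the QC effect in sensitive lines, 501 for the difference of QC effects, 1583 for resistant against sensitive lines and 9278 for families, and adjusted counts were 195, 35, 791, 5, 146 and 6701 for the QC effect in sensitive, resistant and all lines, its difference, resistant against sensitive lines and families. DESeq2 gave adjusted counts of 32 in sensitive lines, 522 in all lines, 1 for the difference, 45 for resistant against sensitive lines (1058 unadjusted) and 5866 for families. A minimum of 10 counts in every library left 115 genes for the difference. Without the replicate block, in a fit that ignores the pairing of libraries by line or family, unadjusted counts fell to 30, 23, 117, 6 and 107, and with family as the replicate block the difference had 438. Limma voom gave 1997 unadjusted and 28 adjusted for resistant against sensitive lines. Leaving out 1 line, unadjusted counts ran from 808 to 2012 in sensitive lines, 415 to 1376 in resistant lines and 187 to 540 for the difference, and adjusted counts from 0 to 18 in sensitive lines and 0 to 1 in all lines.

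Directions turned as follows, on the log2 scale. Relative to RPLP0, the QC effect of ABCC1 became 0.15 in sensitive lines and 0.056 in all lines, that of ABCG2 became 0.089, 0.13 and 0.11 in sensitive, resistant and all lines, that of ABCC4 in resistant lines 0.078, the difference of QC effects of ABCC10 -0.065, and the vehicle difference of ABCC4, ABCG2 and ABCB6 -0.35, -0.43 and -0.065. Without the replicate block, in which libraries of a line are not paired, ABCG2 and ABCB6 in sensitive lines became 0.14 and -0.0041, ABCC4 in resistant lines 0.068, and the differences of QC effects of ABCC2, ABCC3 and ABCG2 0.22, 0.38 and -0.50. With DESeq2 or its size factors, ABCC1 became 0.0134 (DESeq2) and 0.014 (size factors) for the difference and 0.0169 and 0.0171 for the HeyA8 partners, ABCC2 in resistant lines -0.0019 and ABCG2 between resistant and sensitive lines -0.048. In the 6 QC libraries ABCC4 was at -0.25 and with limma voom at -0.075, and with library size alone ABCC10 between the OV2008 partners was at 0.076.

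Leaving out 1 line, the QC effect in sensitive lines ran from -0.22 to 0.34 for ABCC2, -0.046 to 1.06 for ABCC3, -0.46 to 0.030 for ABCG2 and -0.44 to 0.39 for ABCB6. In resistant lines it ran from -0.23 to 0.040 for ABCC1, -0.39 to 0.63 for ABCC2, -0.22 to 0.13 for ABCC4, -0.39 to 0.027 for ABCC10 and -0.28 to 0.25 for ABCG2, and in all lines from -0.11 to 0.38 for ABCC2. The difference of QC effects ran from -0.10 to 0.18 for ABCC1, -0.50 to 0.51 for ABCC2, -0.70 to 0.41 for ABCC3, -0.10 to 0.33 for ABCC10 and -0.11 to 0.47 for ABCG2. Leaving out 1 family, the vehicle difference ran from -0.51 to 0.059 for ABCC1, -1.57 to 0.55 for ABCC3, -0.19 to 0.32 for ABCC4, -1.18 to 1.07 for ABCG2 and -0.018 to 0.64 for ABCB6.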
